A study of Mus musculus with 17 samples.

Results

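The 8 genes described here encode the MYC transcription factors (*Myc*, *Mycn* and *Mycl*), their dimerization partner *Max* and its alternative partner *Mxd4*, the RNA-binding proteins *Lin28a* and *Lin28b*, and *Trim71*. They were chosen by name, with earlier results of these data known, and make up 8 of the 54532 genes in the table. All 8 reached at least 1 TPM (a level per transcript, corrected for gene length and library size) in at least 2 libraries and so were among the 21871 genes tested. RNA-seq was performed in 17 libraries of R1/E mouse embryonic stem cells (mESCs), a line derived from mouse blastocysts, to ask how loss of *Usb1* bears on self-renewal and on differentiation under retinoic acid (RA). *Usb1* encodes the exonuclease that trims the oligo(U) tail of U6 snRNA. The groups were wild-type (WT) and *Usb1* knockout (KO) cells before RA (day 0), after 1 day of RA (day 1) and after 3 days of RA (day 3). WT cells at day 0 had 2 libraries, and each of the other 5 groups had 3 biological replicates. The KO libraries came from 1 CRISPR/Cas9 line, KO-1, so an effect of the knockout and a difference between clones cannot be told apart.

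MYC proteins bind DNA as dimers with MAX, most often at the E-box, and drive genes of ribosome assembly, nucleotide synthesis and growth. MXD proteins compete for MAX and repress the same kind of sites, and they are known to rise as cells leave the cycle or differentiate. LIN28A and LIN28B bind let-7 precursors and block their maturation, and let-7 in turn represses *Lin28*, *Trim71*, *Mycn* and *Hmga2*. TRIM71, known from worms as LIN-41, is a let-7 target and an RNA-binding E3 ligase of stem cells.

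Promoter sequences were taken from RefSeq (GRCm38.p6), from 250 bases before to 50 bases after each transcription start, and 7 of the 8 genes matched (all but *Myc*). The E-box letters CACGTG, which read the same on both strands, occurred in 3 of these 7 promoters, those of *Mxd4*, *Max* and *Lin28b*. The share was 7.15% of all 32851 promoters of the same length and 9.48% of the promoters of genes tested here. The letters of a single retinoic acid receptor half-site, AGGTCA, were searched on both strands, occurred in 0 of the 7 promoters and were held by 16.3% of all promoters. The 3 promoters with an E-box are shown because MYC, MAX and MXD proteins bind these letters. That of *Mycn*, which holds none, is shown because *Mycn* was higher in KO cells at day 0 and day 1. Capitals mark the E-box, and each line runs 5′ to 3′ in the direction of the gene.
Mxd4 (chr5:34187661-34187960, minus strand): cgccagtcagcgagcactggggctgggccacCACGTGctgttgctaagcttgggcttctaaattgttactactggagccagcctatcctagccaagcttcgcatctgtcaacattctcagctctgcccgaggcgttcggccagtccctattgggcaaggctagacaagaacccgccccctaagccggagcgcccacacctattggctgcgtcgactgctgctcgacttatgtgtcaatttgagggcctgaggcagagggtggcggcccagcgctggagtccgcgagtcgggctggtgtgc
Max (chr12:76962199-76962498, minus strand): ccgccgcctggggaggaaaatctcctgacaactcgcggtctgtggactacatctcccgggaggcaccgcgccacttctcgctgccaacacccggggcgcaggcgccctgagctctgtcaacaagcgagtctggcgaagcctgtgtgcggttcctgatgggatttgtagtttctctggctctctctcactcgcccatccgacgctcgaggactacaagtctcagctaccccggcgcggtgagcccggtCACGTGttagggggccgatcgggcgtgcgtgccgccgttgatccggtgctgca
Lin28b (chr10:45470152-45470451, minus strand): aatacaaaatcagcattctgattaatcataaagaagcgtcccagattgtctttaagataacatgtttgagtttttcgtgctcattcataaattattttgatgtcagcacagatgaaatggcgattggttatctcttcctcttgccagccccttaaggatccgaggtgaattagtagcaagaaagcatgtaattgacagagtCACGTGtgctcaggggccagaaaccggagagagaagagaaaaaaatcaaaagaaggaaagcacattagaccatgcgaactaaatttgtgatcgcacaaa
Mycn (chr12:12941787-12942086, minus strand): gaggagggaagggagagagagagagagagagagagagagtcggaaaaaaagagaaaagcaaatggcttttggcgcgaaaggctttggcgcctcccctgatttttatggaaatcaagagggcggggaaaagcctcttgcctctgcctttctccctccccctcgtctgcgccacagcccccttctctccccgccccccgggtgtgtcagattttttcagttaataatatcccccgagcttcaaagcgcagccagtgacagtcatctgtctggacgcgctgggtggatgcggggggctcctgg
The first base of the E-box lay at -219 from the start of *Mxd4*, at -49 from that of *Lin28b* and at -3 from that of *Max*. These matches are a description of letters and are not evidence of binding.

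LIN28 proteins recognize the terminal loop of let-7 precursors, in which the letters GGAG are the known contact. Of the 12 mouse let-7 and miR-98 hairpins in RefSeq, 9 held GGAG between the mature arm and its partner strand, and those of *Mirlet7b*, *Mirlet7c-2* and *Mir98* did not. The hairpin of *Mirlet7g* is shown with GGAG in capitals (GRCm38.p6, chr9:106178840-106178927, plus strand).
Mirlet7g: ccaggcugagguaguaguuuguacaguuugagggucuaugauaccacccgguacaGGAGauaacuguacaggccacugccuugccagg
All 9 mature forms from the 5′ arm shared 1 seed, bases 2 to 8, in capitals in the 3 examples that follow, the stretch by which a microRNA pairs with its target mRNAs.
let-7a-5p: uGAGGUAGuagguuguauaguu
let-7g-5p: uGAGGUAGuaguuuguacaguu
miR-98-5p: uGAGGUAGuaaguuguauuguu
The libraries were not made for small RNA, and the 12 let-7 and miR-98 genes held 8 reads in all 17 libraries together, so let-7 itself was not measured. Of the listed let-7 genes and hosts, 13 of 14 were in the table and 1 was tested, *Mirlet7g*, with adjusted p from 0.338 to 1 over the 12 comparisons.

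The reads recovered from TPM came to between 15404379 and 17300186 per library on genes, and the 8 genes held 50 to 7418 reads in a library. WT replicate 1 at day 0 listed 239 genes with 1 read, KO replicate 1 at day 3 listed 1224 and WT replicate 2 at day 0 listed 1352, against 2150 to 2467 in the other libraries. Both WT libraries at day 0 thus stood apart, and every comparison with WT cells at day 0 rests on them. The lowest 2 are called the libraries with few genes of 1 read, and results without them keep WT replicate 2 at day 0. *Usb1* was at 32 to 56.9 TPM in the 8 WT libraries and at 14.7 to 21.4 TPM in the 9 KO libraries, so transcripts of the targeted gene remained. The Y-linked genes *Ddx3y*, *Eif2s3y* and *Uty* summed to 128 to 159.8 TPM in the WT libraries and to 0 TPM in all KO libraries, a difference between the lines that runs with genotype in every comparison of WT and KO. Pluripotency markers were high at day 0 in both genotypes, with a sum over 6 genes of 5108 ± 62.4 TPM (SD, n = 2) in WT and 5223 ± 257 TPM (SD, n = 3) in KO cells. In these bulk samples, fewer cells of a type and less RNA per cell cannot be told apart.

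The genes fell into 3 patterns. *Myc*, *Mycn* and *Lin28a* dropped sharply within 1 day of RA, *Mycl* and *Mxd4* rose, and the group means of *Max*, *Lin28b* and *Trim71* spanned at most 2.08-fold between the highest and the lowest of the 6 groups. KO cells differed from WT cells mainly at day 0 and day 1, where *Mycn* was about 2-fold higher and *Myc*, *Mxd4* and *Trim71* were lower. At day 3 *Lin28b* and, by less, *Myc* were higher. The calls at day 0 and at day 3 did not hold in fits of the libraries of that day alone. Folds are given on the log2(TPM + 1) scale, which understates changes of genes at low levels, and a log2 value is a log2 fold change or difference ± SE. A gene is said to have risen, fallen or changed where its adjusted p was under 0.05. The plot of levels by day shows all 17 libraries.

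**Figure D1:**
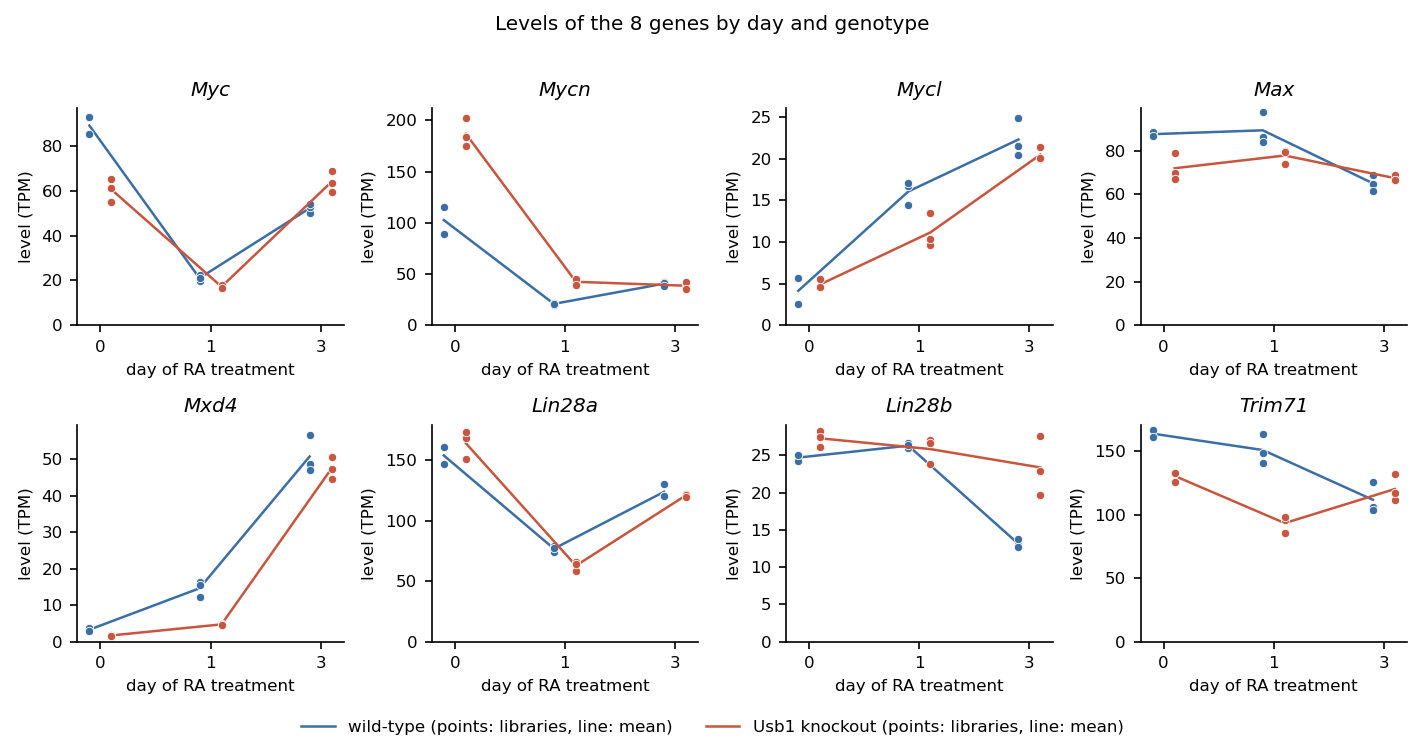
Level of each of the 8 genes (TPM, vertical axis) by day of RA treatment (horizontal axis); points are libraries (n = 2 for WT at day 0, n = 3 otherwise) and lines join group means of WT (blue) and KO (red). *Mycn* starts higher in KO cells (mean 187 against 103 TPM), *Mxd4* climbs from under 4 to about 50 TPM, and *Lin28b* ends lower in WT cells (mean 13.1 against 23.4 TPM at day 3).

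*Myc* encodes the broadly expressed MYC protein and lies at chr15:61985391-61990374, plus strand (GRCm38, as are all gene positions here). *Myc* in WT cells was 85.5 and 93.2 TPM at day 0, 22.4, 19.7 and 21 TPM at day 1 and 50.1, 52.7 and 54.1 TPM at day 3. *Myc* in KO cells was 55.3, 65.6 and 61.2 TPM at day 0, 17, 18.1 and 16.5 TPM at day 1 and 63.7, 69 and 59.8 TPM at day 3. Levels were therefore V-shaped in both genotypes, with the WT and KO libraries apart at every day and the KO libraries below WT at day 0 and day 1 but above WT at day 3. *Myc* fell 4.1-fold from day 0 to day 1 in WT cells (log2 -2.04 ± 0.09, adjusted p = 4.18e-10) and 3.38-fold in KO cells (log2 -1.76 ± 0.08, adjusted p = 6.34e-10). It then rose 2.42-fold from day 1 to day 3 in WT (log2 1.28 ± 0.08, adjusted p = 4.69e-09) and 3.58-fold in KO cells (log2 1.84 ± 0.08, adjusted p = 9.35e-11). WT cells at day 3 stayed below their day 0 level (log2 -0.76 ± 0.09, adjusted p = 2.61e-06). In KO cells the 2 days differed by log2 0.08 ± 0.08, adjusted p = 0.411. The rise from day 1 to day 3 was larger in KO than in WT cells by 0.56 ± 0.11 on the log2 scale (adjusted p = 0.0058). *Myc* was lower in KO than in WT cells at day 0 (log2 -0.55 ± 0.09, adjusted p = 0.00112) and day 1 (log2 -0.27 ± 0.08, adjusted p = 0.0235). It was higher in KO cells at day 3 (log2 0.29 ± 0.08, adjusted p = 0.0324). The call at day 1 was lost in 8 of 27 alternatives, among them without any 1 of 4 libraries. The call at day 3 was lost in 9, among them without any 1 of 5 libraries. At day 1 the log2 difference was -0.10 (adjusted p = 0.406) after quantile normalization and -0.06 (adjusted p = 0.748) with equal library medians. With equal medians the larger rise in KO cells was also lost (log2 0.37, adjusted p = 0.144). By mean level, WT at day 0 stood first, KO at day 3 and KO at day 0 overlapped, and WT at day 3, WT at day 1 and KO at day 1 followed without overlap.

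*Mycn*, the paralogue known for its role in the early embryo and in neural progenitors, lies at chr12:12936093-12941914, minus strand, and its promoter is the one printed without an E-box. *Mycn* in WT cells was 89.4 and 116 TPM at day 0, 21.6, 20.04 and 20.5 TPM at day 1 and 42.6, 40.8 and 38 TPM at day 3. *Mycn* in KO cells was 175, 183 and 202 TPM at day 0, 42.1, 45.3 and 39.5 TPM at day 1 and 38.4, 41.8 and 35.1 TPM at day 3. All KO libraries lay above all WT libraries at day 0 and day 1, and the 2 genotypes overlapped at day 3. The KO level was 1.82 times the WT level in TPM at day 0 (log2 0.87 ± 0.11, adjusted p = 1.81e-04) and 2.04 times at day 1 (log2 0.99 ± 0.09, adjusted p = 1.01e-05). At day 3 the log2 difference was -0.07 (adjusted p = 0.776), with a 95% interval -0.28 to 0.13. Within 1 day of RA, *Mycn* fell 4.73-fold in WT (log2 -2.24 ± 0.11, adjusted p = 1.20e-09) and 4.34-fold in KO cells (log2 -2.12 ± 0.09, adjusted p = 9.15e-10). The difference between these changes was 0.13 ± 0.14 on the log2 scale (adjusted p = 0.683). From day 1 to day 3 the lines parted. *Mycn* rose in WT cells (log2 0.93 ± 0.09, adjusted p = 1.39e-06), and in KO cells the difference was -0.14 (adjusted p = 0.277). The difference between the 2 changes was -1.07 ± 0.13 on the log2 scale (adjusted p = 2.65e-04). After quantile normalization *Mycn* also fell in KO cells in this step (log2 -0.29, adjusted p = 0.0231). In a fit of the 5 libraries of day 0 alone, the difference between the genotypes had an adjusted p of 0.0818. Ordered by mean level, KO at day 0 stood first and WT at day 0 second. KO at day 1, WT at day 3 and KO at day 3 overlapped next, and WT at day 1 was last.

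*Mycl*, a MYC paralogue with weaker transforming activity, lies at chr4:122995652-123002485, plus strand. *Mycl* in WT cells was 2.59 and 5.65 TPM at day 0, 14.5, 16.7 and 17.1 TPM at day 1 and 21.6, 20.5 and 24.9 TPM at day 3. *Mycl* in KO cells was 4.61, 5.5 and 4.57 TPM at day 0, 9.61, 13.5 and 10.4 TPM at day 1 and 21.4, 19.96 and 20.1 TPM at day 3. *Mycl* was lowest at day 0 and highest at day 3 in both genotypes, without overlap between the days. The lower WT library at day 0, replicate 1, which had few genes of 1 read, rested on 50 reads. *Mycl* rose 4.76-fold in WT (log2 2.25 ± 0.20, adjusted p = 2.91e-07) and 3.66-fold in KO cells (log2 1.87 ± 0.18, adjusted p = 5.90e-07) from day 0 to day 3. Most of the WT rise was present at day 1 (log2 1.8 ± 0.20, adjusted p = 8.91e-06), and KO cells at day 1 had also risen (log2 1.03 ± 0.18, adjusted p = 6.45e-04). No difference between the genotypes passed, with log2 values of 0.27 (adjusted p = 0.431) at day 0, -0.50 (adjusted p = 0.0772) at day 1 and -0.11 (adjusted p = 0.837) at day 3. The 3 KO libraries at day 1 were nonetheless all below the 3 WT libraries. Without WT replicate 2 at day 0, which leaves the library of 50 reads as the lone one of its group, *Mycl* was called higher in KO cells at day 0 (log2 0.71, adjusted p = 0.0105) and its rise to day 1 smaller there (log2 -1.21, adjusted p = 0.00276). By mean level, WT and KO at day 3 overlapped at the top, WT and KO at day 1 followed without overlap, and KO and WT at day 0 overlapped at the bottom.

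The make-up of the MYC pool differed between the lines. Summed over *Myc*, *Mycn* and *Mycl*, the level was 196 ± 26.1 TPM (SD, n = 2) in WT and 252 ± 16.8 TPM (SD, n = 3) in KO cells at day 0. It was 57.8 ± 1.23 and 70.6 ± 5.45 TPM at day 1 and 115 ± 1.71 and 123 ± 7.87 TPM at day 3 (n = 3). *Mycn* made up 52.2% of the sum in WT and 74% in KO cells at day 0, 35.8% and 59.9% at day 1, and 35.2% and 31.2% at day 3. The *Mycn* level was 1.05 to 1.24 times the *Myc* level in the WT libraries at day 0 and 2.8 to 3.31 times in the KO libraries. The factor was 0.964 to 1.02 against 2.39 to 2.51 at day 1 and 0.702 to 0.849 against 0.587 to 0.605 at day 3. KO cells therefore went from a *Mycn*-dominated pool to one led by *Myc*, and WT cells started with about equal parts. *Mycl* reached 27.8% of the sum in WT and 15.7% in KO cells at day 1, from 2.05% and 1.94% at day 0. These sums and shares are descriptions, with no test of their own.

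**Figure D2:**
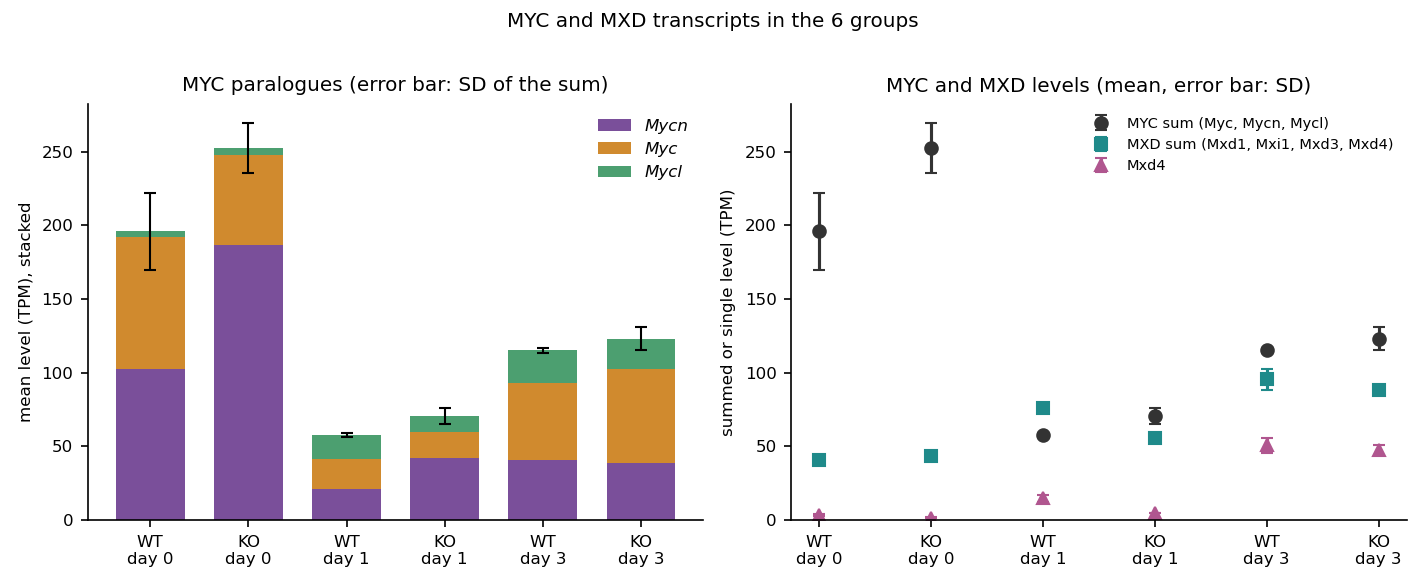
Left, mean levels (TPM, vertical axis) of *Mycn*, *Myc* and *Mycl* stacked for the 6 groups (horizontal axis; error bar, SD of the sum, n = 2 or 3). Right, mean ± SD of the MYC sum, of the sum of the 4 MXD genes and of *Mxd4* alone: the MYC sum is above the MXD sum at day 0 (196 against 40.9 TPM in WT) and below it in WT cells at day 1 (57.8 against 75.8 TPM).

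*Max*, the obligate partner of MYC and MXD proteins, lies at chr12:76937269-76962201, minus strand, and its promoter carries an E-box next to the start. *Max* in WT cells was 88.5 and 86.9 TPM at day 0, 86.6, 84.1 and 97.7 TPM at day 1 and 64.7, 68.9 and 61.7 TPM at day 3. *Max* in KO cells was 69.96, 67 and 79.2 TPM at day 0, 74.2, 79.9 and 79.6 TPM at day 1 and 68.9, 66.7 and 66.8 TPM at day 3. It was the steadiest of the 8 genes, with group means that spanned 1.37-fold against 30.1-fold for *Mxd4*. *Max* fell in WT cells from day 1 to day 3 (log2 -0.45 ± 0.07, adjusted p = 9.36e-05) and in KO cells (log2 -0.20 ± 0.07, adjusted p = 0.0287). The fall in KO cells did not pass without KO replicate 2 or 3 at day 1 or KO replicate 2 or 3 at day 3 (adjusted p = 0.0683 to 0.088). The difference between the 2 changes did not pass (log2 0.25 (adjusted p = 0.16)). KO libraries were below WT libraries at day 0 (log2 -0.28 ± 0.08, adjusted p = 0.0321) and day 1 (log2 -0.20 (adjusted p = 0.072)), and only the first passed. That call was lost without any 1 of 4 libraries of day 0 (adjusted p = 0.0511 to 0.148, the highest without WT replicate 1) and with equal library medians (adjusted p = 0.347). By mean level, WT at day 1 and day 0 overlapped at the top, and the other 4 groups lay below them and each overlapped with the next. The MYC sum was 2.01 to 2.47 times the *Max* level in WT and 3.35 to 3.8 times in KO libraries at day 0, and 0.5997 to 0.675 and 0.834 to 0.96 times at day 1.

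*Mxd4* encodes a MAX-binding repressor of E-box genes and lies at chr5:34173883-34187720, minus strand, with an E-box in the printed promoter. *Mxd4* in WT cells was 3.68 and 2.85 TPM at day 0, 16.2, 12.2 and 15.4 TPM at day 1 and 48.6, 47 and 56.6 TPM at day 3. *Mxd4* in KO cells was 1.79, 1.6 and 1.66 TPM at day 0, 4.68, 4.85 and 4.64 TPM at day 1 and 44.5, 50.7 and 47.2 TPM at day 3. The WT libraries lay above the KO libraries at day 0 and by a wide margin at day 1, and the groups overlapped at day 3. *Mxd4* had the steepest rise of the 8 genes, to 15.6 times its day 0 level in TPM in WT (log2 3.6 ± 0.13, adjusted p = 1.44e-11) and 28.2 times in KO cells (log2 4.17 ± 0.12, adjusted p = 7.88e-13). The rise came later in KO cells. In the first day it was 3.66-fold in WT (log2 1.87 ± 0.13, adjusted p = 6.55e-08) and 2.13-fold in KO cells (log2 1.09 ± 0.12, adjusted p = 6.20e-06). Between day 1 and day 3 it was 3.33-fold (log2 1.73 ± 0.12, adjusted p = 1.65e-08) against 8.46-fold (log2 3.08 ± 0.12, adjusted p = 3.53e-11). The difference between the genotypes in the later step was 1.35 ± 0.16 on the log2 scale (adjusted p = 2.15e-04), and in the earlier step -0.78 ± 0.17 on the log2 scale (adjusted p = 0.0343). The latter did not pass with a pseudocount of 0.1, after either rescaling, in the fit of recovered reads or without any 1 of 9 libraries (adjusted p = 0.0528 to 0.0871). KO against WT, *Mxd4* was lower at day 0 (log2 -0.66 ± 0.13, adjusted p = 0.00544) and 2.71-fold lower at day 1 (log2 -1.44 ± 0.12, adjusted p = 1.98e-06). At day 3 the log2 difference was -0.09 (adjusted p = 0.775). The call at day 0 was lost without WT replicate 1 at day 0 (adjusted p = 0.064). The exons of *Mxd4* share 514 bases with an antisense gene, *Gm42846*, listed at 0 TPM in every library, and whether reads were counted by strand is not given in the sources used here. By mean level, WT and KO at day 3 overlapped, and WT at day 1, KO at day 1, WT at day 0 and KO at day 0 followed in that order without overlap.

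The ratio of MYC to MXD transcripts was lower after RA in every library of both lines. The MXD sum (*Mxd1*, *Mxi1*, *Mxd3* and *Mxd4*) was 40.9 ± 3.3 TPM in WT and 43.7 ± 0.627 TPM in KO cells at day 0. It was 75.8 ± 3.18 and 55.5 ± 1.56 TPM at day 1, and 95.4 ± 7.39 and 88.2 ± 3.61 TPM at day 3 (SD). Per library, the ratio of the MYC sum to the MXD sum was 4.61 to 4.96 in WT and 5.35 to 6.06 in KO cells at day 0, 0.71 to 0.797 and 1.17 to 1.43 at day 1, and 1.13 to 1.26 and 1.32 to 1.45 at day 3. The ratio was below 1 in the WT libraries at day 1 and in no KO library. *Mxd4* made up 8.07% of the MXD sum in WT and 3.85% in KO cells at day 0, and 53.1% and 53.8% at day 3, so by then it was the leading member.

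A further 8 genes of the MYC-MAX network were listed beside *Max* and *Mxd4*. KO against WT, 6 of 8 passed at day 1 (1 higher, 5 lower), against 17.3% of all genes (3.74% higher, 13.6% lower), but 1 higher and 1 lower after each of the 2 rescalings. In limma 0 of 8 passed at day 0 and 0 at day 3 (2 at an unadjusted p under 0.05 at each day), against 2 and 0 in the recovered-read fit. Lower in KO cells at day 1 were the MAX partners *Mxd1* (log2 -0.76 ± 0.15, adjusted p = 0.00318) and *Mga* (log2 -0.52 ± 0.16, adjusted p = 0.0367), together with *Mxi1*, *Mnt* and the MLX partner *Mlxip*. The glucose-responsive factor *Mlxipl* was higher (log2 0.75 ± 0.18, adjusted p = 0.009997). *Mxi1*, a repressor of the MXD family, rose in WT cells from day 0 to day 1 (log2 1.3 ± 0.12, adjusted p = 1.25e-06) and by less in KO cells (log2 0.60 ± 0.11, adjusted p = 6.93e-04). The difference was -0.70 on the log2 scale (adjusted p = 0.0386). No gene of the list passed this test after either rescaling, with no filter on low values, with the libraries of these days alone or without the libraries with few genes of 1 read. Among the 8 listed MYC cofactors and turnover factors, 5 fell from day 0 to day 3 in WT and 5 in KO cells, against 22.5% and 21.8% of all genes. Among them were the AAA+ ATPases *Ruvbl1* (log2 -1.47 ± 0.06, adjusted p = 4.83e-11 in WT) and *Ruvbl2* (log2 -1.36 ± 0.06, adjusted p = 9.12e-11 in KO). *Aurka*, the kinase known to stabilize MYCN protein, was lower in KO than in WT cells at day 3 (log2 -0.41 ± 0.06, adjusted p = 4.05e-04). It was the 1 of these 8 lower at day 3, and 1 was higher, against 3.56% and 3.96% of all genes. At day 0, 1 was higher and 0 lower in KO cells, against 5.08% and 6.8% of all genes. At day 1, 2 were higher and 2 lower, against 3.74% and 13.6%.

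Most listed MYC target genes fell with RA in both lines, and most were higher in KO than in WT cells at day 1. Of 26 genes of ribosome assembly, metabolism and protein folding, 18 fell and 0 rose from day 0 to day 1 in WT cells (12.5% of all genes fell; median log2 -0.53, against 0.17 over all genes tested). In KO cells 14 fell and 0 rose, where 11.7% of all genes fell (median -0.26, against 0.02). By day 3, 24 were below day 0 in WT (median -1.04) and 24 in KO cells (median -0.93), against 22.5% and 21.8% of all genes. *Srm*, a polyamine synthesis enzyme, went from 432 ± 0.16 to 189.9 ± 8.88 TPM in WT within 1 day and from 377 ± 10.2 to 243 ± 12.5 TPM in KO cells. *Gnl3*, a nucleolar GTPase of stem cells, went from 154 ± 0.338 to 55.7 ± 3.47 TPM and from 140.2 ± 2.75 to 74.3 ± 3.65 TPM. The fall was smaller in KO cells for both genes, by log2 0.55 for *Srm* (adjusted p = 0.00777) and 0.54 for *Gnl3* (adjusted p = 0.019). Such a difference passed for 9 of 26 genes, all higher in KO, against 2.23% of all genes. It passed for only 3 with equal medians and 3 without the 2 libraries that had few genes of 1 read. With KO set against WT, 18 of 26 were higher and 1 lower at day 1 (3.74% and 13.6% of all genes; median 0.25, against -0.13 over all genes). At day 0, 4 were higher and 3 lower, against 5.08% and 6.8% of all genes. At day 3, 5 were higher and 0 lower, against 3.96% and 3.56%. The RNA helicase *Ddx18* was higher in KO cells at all 3 days, with 489.7 ± 16.3 against 291 ± 12.8 TPM at day 1 (log2 0.75 ± 0.05, adjusted p = 2.78e-07). At day 1 the count of higher genes ranged from 14 to 20 over both rescalings, the recovered-read fit and the fit without the 2 libraries that had few genes of 1 read. RefSeq held 26 promoters of 22 of the listed targets, and 8 of these promoters (30.8%) carried the E-box letters. The share was 9.48% among promoters of genes tested. The half-site letters AGGTCA also occurred in 8 of the 26 (30.8%), against 13.2% of promoters of genes tested. Whether *Myc* or *Mycn* acted on these genes was not tested.

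**Figure D3:**
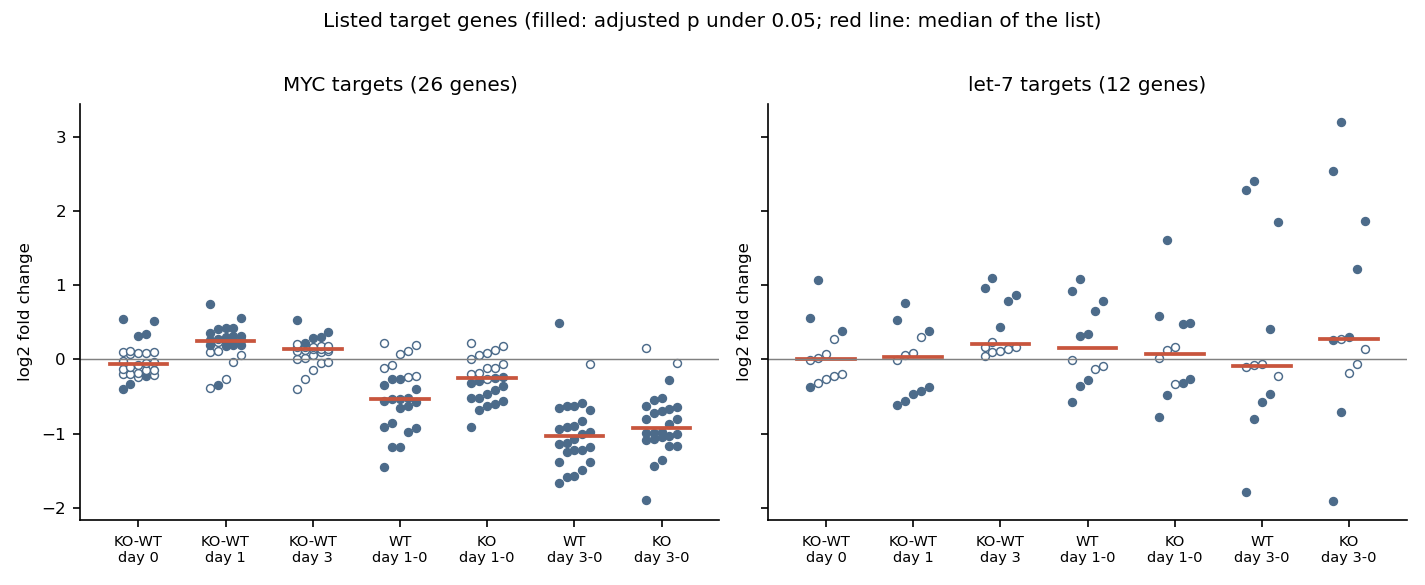
Log2 fold change (vertical axis) of 26 listed MYC targets (left) and 12 listed let-7 targets (right) in 7 comparisons (horizontal axis); each point is 1 gene, filled where its adjusted p is under 0.05, and the red line is the median of the list. MYC targets lie mostly below 0 after RA, with medians of -1.04 in WT and -0.93 in KO cells at day 3, and mostly above 0 for KO against WT at day 1 (median 0.25).

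*Lin28a*, the main LIN28 protein of pluripotent cells, lies at chr4:134003330-134018841, minus strand. *Lin28a* in WT cells was 147 and 161 TPM at day 0, 78.8, 74.6 and 77.4 TPM at day 1 and 121, 131 and 121 TPM at day 3. *Lin28a* in KO cells was 151, 168 and 174 TPM at day 0, 58.2, 65.9 and 64.4 TPM at day 1 and 123, 121 and 119 TPM at day 3. It was lowest at day 1 and between the 2 other days at day 3 in both lines, and the genotypes overlapped at day 0 and day 3. *Lin28a* fell 1.99-fold by day 1 in WT (log2 -0.99 ± 0.07, adjusted p = 8.67e-08) and 2.59-fold in KO cells (log2 -1.37 ± 0.06, adjusted p = 1.21e-09). The changes differed by -0.38 ± 0.10 on the log2 scale (adjusted p = 0.0544). It rose from day 1 to day 3 in WT (log2 0.68 ± 0.06, adjusted p = 5.55e-07) and KO cells (log2 0.94 ± 0.06, adjusted p = 1.82e-08). Both lines at day 3 remained below day 0, with log2 fold changes of -0.31 (adjusted p = 0.00182) in WT and -0.43 (adjusted p = 3.73e-05) in KO cells. KO against WT, *Lin28a* was lower at day 1 (log2 -0.29 ± 0.06, adjusted p = 0.00671), a call that was lost after both rescalings and in the recovered-read fit (adjusted p = 0.065 to 0.69). By mean level, KO and WT at day 0 overlapped at the top, WT and KO at day 3 overlapped next, and WT and KO at day 1 came last without overlap. Its exons share 234 bases with the antisense gene *Gm13061*, listed at 0 to 2.94 TPM.

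*Lin28b*, the second LIN28 protein, which acts on let-7 mainly in the nucleus, lies at chr10:45376620-45486395, minus strand. The RefSeq start behind the printed promoter lies inside this GENCODE gene. *Lin28b* in WT cells was 24.3 and 25.1 TPM at day 0, 25.9, 26.6 and 26.3 TPM at day 1 and 12.9, 13.8 and 12.7 TPM at day 3. *Lin28b* in KO cells was 28.3, 26.1 and 27.5 TPM at day 0, 27.1, 26.7 and 23.8 TPM at day 1 and 19.6, 22.9 and 27.6 TPM at day 3. By mean level, 5 of the 6 groups each overlapped with the next, and WT cells at day 3 stood alone below them, with every WT library under every library of the other groups. *Lin28b* fell 1.94-fold from day 1 to day 3 in WT cells (log2 -0.95 ± 0.10, adjusted p = 1.49e-06), and in KO cells the difference was log2 -0.15 ± 0.10, adjusted p = 0.241. The 2 changes differed by 0.80 ± 0.14 on the log2 scale (adjusted p = 0.00281), and those from day 0 to day 3 by 0.64 ± 0.15 on the log2 scale (adjusted p = 0.0207). The latter did not pass in a fit of these libraries alone (adjusted p = 0.0868), without WT replicate 1 at day 0 (0.0532) or without KO replicate 2 at day 0 (0.0509). At day 3, KO cells had 1.78 times the WT level in TPM (log2 0.78 ± 0.10, adjusted p = 1.89e-04). The 3 KO libraries at day 3 were more spread than those of any other group (SD 4.03 TPM). Without the highest of them, replicate 3, the KO cells at day 3 also fell below day 1 (log2 -0.27, adjusted p = 0.0167). A fall in KO cells in this step was also called after quantile normalization (log2 -0.34, adjusted p = 0.00448), with equal medians (-0.35, adjusted p = 0.00261) and in the recovered-read fit (-0.27, adjusted p = 0.0129). The difference between the genotypes in this step passed in these 3 fits too (adjusted p = 6.41e-04 to 0.00662). Fitted on the 6 libraries of day 3 alone, the difference between the genotypes had an adjusted p of 0.0562.

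Levels of *Lin28a* exceeded those of *Lin28b* in every library. The ratio of *Lin28a* to *Lin28b* was 6.04 to 6.43 in WT and 5.33 to 6.45 in KO libraries at day 0, 2.8 to 3.04 and 2.15 to 2.71 at day 1, and 9.33 to 9.54 and 4.32 to 6.25 at day 3. The narrow ratio at day 1 came with the dip of *Lin28a*, and the wide one of WT cells at day 3 with the drop of *Lin28b*.

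Of 9 listed genes of let-7 biogenesis and turnover, 3 rose and 5 fell from day 0 to day 3 in WT cells, and 4 rose and 3 fell in KO cells. Of all genes, 52.1% passed in WT and 51.5% in KO cells. *Tut4*, the terminal uridylyltransferase that LIN28A recruits to let-7 precursors, was 38.2 ± 1.87 TPM in WT (SD, n = 2) and 27.3 ± 1.47 TPM in KO cells (SD, n = 3) at day 0. It was 80.4 ± 6.89 and 52.6 ± 3.85 TPM at day 1. *Tut4* rose in both lines by day 1 (log2 1.05 ± 0.14, adjusted p = 4.84e-05 in WT, and log2 0.92 ± 0.13, adjusted p = 8.01e-05 in KO). It was lower in KO than in WT cells at day 1 (log2 -0.60 ± 0.13, adjusted p = 0.00558). KO against WT, 3 of 9 passed at day 0 (1 higher, 2 lower), 4 at day 1 (0 higher, 4 lower) and 1 at day 3, against 11.9%, 17.3% and 7.52% of all genes. At day 1, 1 was higher and 2 lower after quantile normalization, and 2 higher and 1 lower with equal medians. The gene at day 3 was the exonuclease *Dis3l2*, which degrades uridylated let-7 precursors (log2 0.28 ± 0.07, adjusted p = 0.0326).

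Of 12 listed let-7 targets, 5 were higher and 0 lower in KO cells at day 3, where 3.96% of all genes were higher (median log2 0.20, against 0.00 over all genes). Again 5 were higher after each of the 2 rescalings, in the recovered-read fit and without the 2 libraries with few genes of 1 read. In a fit of the libraries of day 3 alone, 4 were higher. *Hmga2*, a chromatin protein of embryonic cells, was at 52.1 ± 2.04 TPM in WT and 112 ± 12.9 TPM in KO cells at day 3 (log2 1.09 ± 0.11, adjusted p = 2.42e-05). It was also higher in KO cells at day 0 (log2 1.07 ± 0.12, adjusted p = 9.64e-05). That call was lost in a fit of the libraries of day 0 alone, where 0 of the 12 were higher and 0 lower. The mRNA-binding protein gene *Igf2bp2* was at 16.1 ± 0.905 and 32.2 ± 1.56 TPM (log2 0.96 ± 0.08, adjusted p = 4.33e-06), and the cyclin gene *Ccnd2* at 36.1 ± 5.32 and 66.6 ± 10.8 TPM (log2 0.86 ± 0.15, adjusted p = 0.00227). At day 0, 3 were higher and 1 lower in KO cells, against 5.08% and 6.8% of all genes. At day 1, 3 were higher and 5 lower (5 higher and 2 lower with equal medians), against 3.74% and 13.6% of all genes. From day 1 to day 3, the change was more positive in KO than in WT cells for 7 of the 12 and less so for 0 (3 to 7 under the same alternatives). These were led by *Arid3b* (log2 1.00, adjusted p = 5.19e-05). Of all genes 7.61% passed this test, 1298 with a more positive and 367 with a less positive change in KO cells. Since let-7 was not measured, a part of let-7 or of *Lin28b* in these values was not tested.

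*Trim71*, the RNA-binding E3 ligase, lies at chr9:114507133-114564369, minus strand. *Trim71* in WT cells was 166 and 161 TPM at day 0, 163, 140.4 and 148 TPM at day 1 and 106, 103 and 126 TPM at day 3. *Trim71* in KO cells was 133, 126 and 132 TPM at day 0, 96, 98.3 and 85.3 TPM at day 1 and 111, 132 and 117 TPM at day 3. The WT libraries of day 0 and day 1 overlapped and those of day 3 lay below, whereas KO cells were lowest at day 1, where all KO libraries lay far under the WT libraries. In the first day of RA the log2 fold change in WT cells was -0.12 (adjusted p = 0.352), but -0.30 (adjusted p = 0.0047) with equal library medians. KO cells fell in this step (log2 -0.48 ± 0.09, adjusted p = 6.48e-04). *Trim71* was 1.61-fold lower in KO than in WT cells at day 1 (log2 -0.69 ± 0.09, adjusted p = 1.00e-04). At day 0 it was also lower (log2 -0.33 ± 0.10, adjusted p = 0.0408). That call was lost in 14 of 27 alternatives, among them 8 of the 17 fits that left out 1 library. At day 3 the log2 difference was 0.11 (adjusted p = 0.592). From day 1 to day 3, *Trim71* fell in WT (log2 -0.43 ± 0.09, adjusted p = 7.41e-04) and rose in KO cells (log2 0.36 ± 0.09, adjusted p = 0.00298), a difference of 0.79 ± 0.12 on the log2 scale (adjusted p = 0.00116). The rise in KO cells had an adjusted p of 0.0568 with equal library medians. By mean level, WT at day 0 and day 1 overlapped, KO at day 0, KO at day 3 and WT at day 3 overlapped below them, and KO at day 1 was last. Its exons share 135 bases with the antisense gene *C130032M10Rik*, at 0 to 6.33 TPM.

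Of 6 listed mRNAs that TRIM71 is known to repress, *Cdkn1a*, the cell-cycle inhibitor p21, was higher in KO cells at day 0 (55 ± 2.23 against 35.5 ± 6.44 TPM, log2 0.63 ± 0.09, adjusted p = 9.72e-04). At day 1 it stood at 38.9 ± 0.688 and 38.2 ± 0.762 TPM. The pocket protein gene *Rbl2* was lower in KO cells at day 0 (log2 -0.60 ± 0.17, adjusted p = 0.0335) and day 1 (log2 -0.49 ± 0.15, adjusted p = 0.0361), and the number of listed genes lower was 0 at both days after each rescaling. At day 0 the number lower was also 0 with the libraries of that day alone and without the libraries with few genes of 1 read. With the libraries of day 0 alone the number higher was 0 as well, so the call of *Cdkn1a* was lost there. KO against WT, 2 of the 6 passed at day 0 and 1 at day 1, against 11.9% and 17.3% of all genes. At day 3, 0 of the 6 passed in limma (1 at an unadjusted p under 0.05), against 7.52% of all genes. In the recovered-read fit 1 passed at day 3. Between day 0 and day 3, 1 of the 6 rose and 2 fell in WT cells and 1 rose and 3 fell in KO cells, near the 52.1% and 51.5% of all genes that passed. *Cdkn1a* was the one that rose (log2 1.54 ± 0.09, adjusted p = 3.78e-09 in WT, and log2 0.87 ± 0.08, adjusted p = 5.54e-07 in KO).

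The counts of calls among the 8 genes are set here beside those among all genes tested. The 8 genes and all lists were chosen with earlier results of these data known, so such counts are a description. For KO against WT at day 0, 5 of 8 passed (1 higher, 4 lower) while 11.9% of all genes did (5.08% higher and 6.8% lower). At day 1, 5 of 8 passed (1 higher, 4 lower) against 17.3% of all genes (3.74% higher and 13.6% lower). At day 3, 2 of 8 passed, both higher, against 7.52% (3.96% higher and 3.56% lower). *Mycn* was the gene higher in KO cells at day 0 and day 1. *Myc*, *Mxd4* and *Trim71* were lower at both days, joined by *Max* at day 0 and by *Lin28a* at day 1, and *Myc* and *Lin28b* were higher at day 3. All genes together had a median log2 difference of -0.13 at day 1. The share of called genes that were higher in KO was 21.6% there, 46.2% after quantile normalization and 61.8% with equal library medians. Relative to such a shift, *Mycn*, *Mxd4* and *Trim71* kept their direction and their call at day 1 under both rescalings. At day 0 the corresponding shares were 42.7%, 51.4% and 63.9%.

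**Figure D4:**
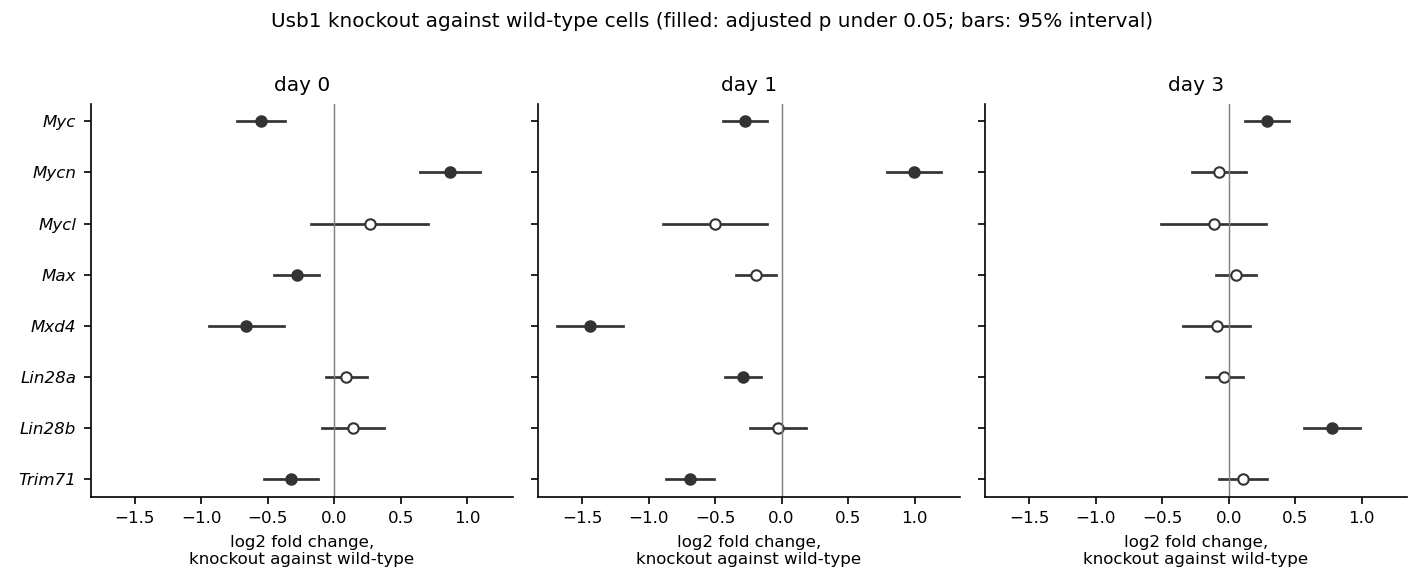
Log2 fold change of KO against WT (horizontal axis) for the 8 genes (vertical axis) at day 0, 1 and 3; points are limma estimates, filled where the adjusted p is under 0.05, and bars are 95% intervals. *Mycn* lies to the right at day 0 and day 1 (0.87 and 0.99), *Mxd4* to the left at day 1 (-1.44), and *Lin28b* to the right at day 3 (0.78).

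For RA treatment the background was far higher, so counts say less. In WT cells, 5 of 8 passed from day 0 to day 1 (2 higher, 3 lower) against 38% of all genes (25.5% and 12.5%). From day 0 to day 3 it was 8 of 8 (2 higher, 6 lower) against 52.1% (29.6% and 22.5%), and between day 1 and day 3 it was 7 of 8 (4 higher, 3 lower) against 43.8% (19.5% and 24.3%). In KO cells, 6 of 8 passed from day 0 to day 1 (2 higher, 4 lower) against 27.7% (16% and 11.7%). From day 0 to day 3 it was 4 of 8 (2 higher, 2 lower) against 51.5% (29.7% and 21.8%), and between day 1 and day 3 it was 6 of 8 (5 higher, 1 lower) against 44.9% (25.5% and 19.4%). In each bracket the first share is higher and the second lower. *Myc*, *Max*, *Lin28b* and *Trim71* were below day 0 at day 3 in WT cells and did not pass in KO cells. With equal library medians *Max* (log2 -0.37, adjusted p = 0.00695), *Lin28b* (-0.51, adjusted p = 9.39e-05) and *Trim71* (-0.40, adjusted p = 1.12e-04) were also below day 0 at day 3 in KO cells. The median over all genes moved by 0.17 from day 0 to day 1 in WT cells. The share of called genes that rose was 67% there, 52.9% after quantile normalization and 46.9% with equal medians. Comparisons of the same genotype share libraries (day 1 and day 3 were both set against day 0), so their values are not independent.

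**Figure D5:**
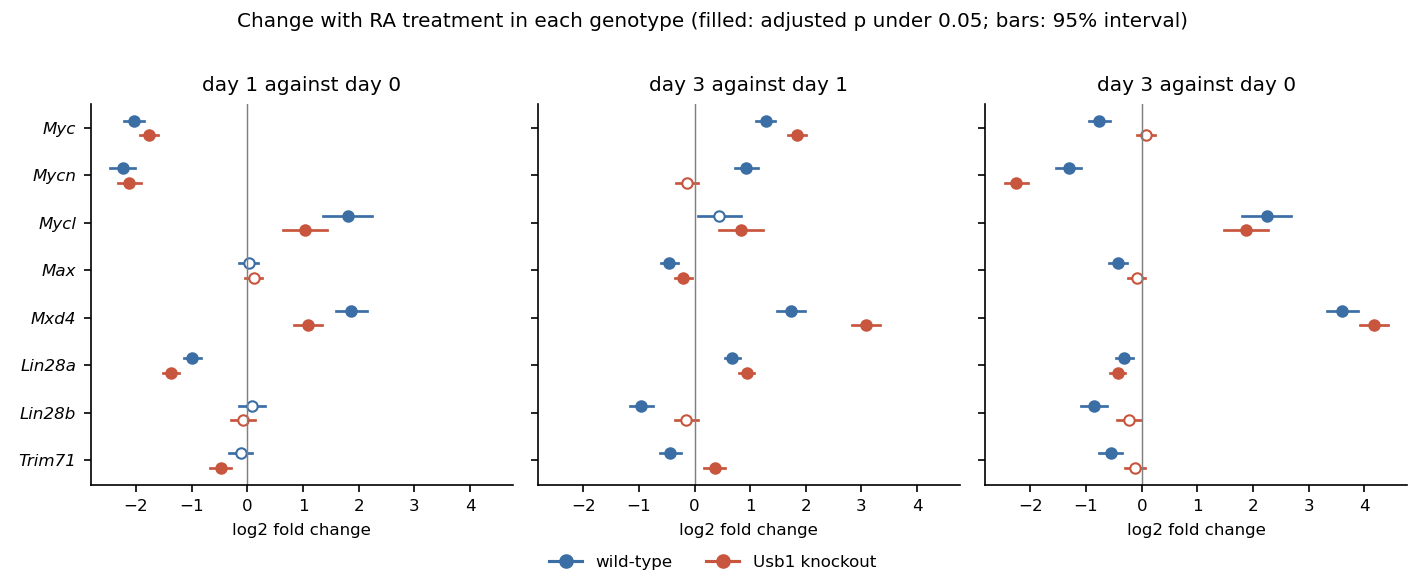
Log2 fold change (horizontal axis) of the 8 genes (vertical axis) with RA in WT (blue) and KO cells (red), for day 1 against day 0, day 3 against day 1 and day 3 against day 0; filled points have an adjusted p under 0.05 and bars are 95% intervals. The 2 colours part most for *Mycn* (0.93 against -0.14) and *Mxd4* (1.73 against 3.08) from day 1 to day 3.

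The test of the difference between genotypes in the RA response bore mostly on the second step. From day 1 to day 3 it passed for 5 of 8 genes (*Myc*, *Mxd4*, *Lin28b* and *Trim71* more positive in KO, *Mycn* more negative) against 7.61% of all genes. Over the whole span from day 0 to day 3 it passed for 3 (*Myc* and *Lin28b* more positive, *Mycn* more negative) against 6.15%. For day 0 to day 1 it passed for 1, *Mxd4*, against 2.23%. The change of *Myc* from day 0 to day 3 differed by 0.84 ± 0.11 on the log2 scale (adjusted p = 9.09e-04), and that of *Mycn* by -0.94 ± 0.14 on the log2 scale (adjusted p = 0.00165).

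Markers of other cell types moved with day and genotype beside these genes. Primitive endoderm markers (5 of 5 tested: *Gata4*, *Gata6*, *Sox17*, *Sox7*, *Dab2*) summed to 75.5 ± 1.2 TPM in WT and 20.1 ± 1.46 TPM in KO cells at day 1 and to 393 ± 20.5 and 177 ± 11.6 TPM at day 3 (SD, n = 3). Of these, 4 of 5 were lower in KO cells at day 1 and 5 of 5 at day 3, against 13.6% and 3.56% of all genes. At day 0 the sum was 18.3 ± 9.74 TPM in WT (SD, n = 2) and 10.1 ± 0.785 TPM in KO cells (SD, n = 3). There 2 of 5 were lower in KO cells, against 6.8% of all genes. *Mxd4* was also lower in KO cells at day 0 and day 1. At day 3 it did not pass (mean 47.5 TPM in KO and 50.7 TPM in WT cells). Pluripotency markers were higher in KO cells for 3 of 6 genes at day 1 (sum 3625 ± 47 against 2883 ± 43.9 TPM). At day 3, 5 of 6 were higher and 1 lower (sum 541 ± 34.3 against 329 ± 21.6 TPM). Of all genes, 3.74% and 3.96% were higher at these days. *Mycn* was higher in KO cells at day 1 and *Lin28b* at day 3. *Mycn* was also higher at day 0, where 0 of the 6 markers passed. It did not pass at day 3, nor did *Lin28b* at day 1. Fibroblast markers (7 listed, 5 tested) summed to 4.65 to 9.01 TPM at day 0 and day 1, with *Dcn*, *Lum* and *Postn* at 0 TPM in all those libraries. They summed to 44.5 to 80.3 TPM at day 3, where 4 of 5 were higher in KO cells, against 3.96% of all genes. Neural markers (5 listed, 4 tested) summed to 117 ± 9.44 TPM in WT and 138 ± 5.63 TPM in KO cells at day 0. They summed to 96.9 ± 5.66 and 99.6 ± 2.54 TPM at day 1 and to 105 ± 5.09 and 143 ± 11.1 TPM at day 3. In KO cells 1 of 4 was higher at day 0, 1 lower at day 1 and 2 higher at day 3. The shares of all genes were 5.08%, 13.6% and 3.96%. In fits of the libraries of that day alone, 0 were higher at day 0 and 1 at day 3. The part of these cell types in the values of the 8 genes was not tested.

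The genes whose log2 levels followed each of the 8 most closely over the 17 libraries were found by Pearson's r, a description over libraries that share days and genotypes. *Mxd4* was closest to the netrin receptor gene *Unc5b* (r = 0.996) and the ephrin gene *Efnb2* (r = 0.996), *Mycl* to *Slc22a17* (0.985) and *Gpsm1* (0.984). *Mycn* was closest to *Aprt* (0.973) and *Eppk1* (0.968), and *Lin28a* to *Junb* (0.973) and *Prr13* (0.971). *Myc* was closest to *Tns3* (0.965) and *Pitpnm2* (0.962), *Trim71* to *Polr2a* (0.947) and *Shc1* (0.928). *Lin28b* was closest to *Gramd1a* (0.942) and *Nrd1* (0.941), and *Max* to *Gm8935* (0.927) and *Ppp2r2d* (0.923).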

How the data were processed

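RNA-seq libraries of 17 samples in 6 groups of genotype and day were compared, using the processed table the authors deposited, which holds 1 TPM value per gene and library. The submitters' processing notes list HISAT2 2.1.0, StringTie 1.3.6 and GRCm38.p6, and 54495 of 54532 gene identifiers were found in GENCODE M21. The study fitted a count model to reads, but the deposited values are TPM, so log2(TPM + 1) was tested with limma 3.58.1 (R 4.3.3). Genes under 1 TPM in all or all but 1 library were left out, all 6 groups shared 1 estimate of the spread with a mean trend, p-values were adjusted by Benjamini-Hochberg over 21871 genes, and adjusted p under 0.05 was the threshold. The p-values measure the spread between replicate samples of 1 line per genotype.

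Whole reads were recovered from the deposited TPM for 95.9% to 96.7% of values (within 0.01 of a whole number), which gave the depths and an alternative fit with voom. The limma script was tested on simulated data. TPM is relative to the total of a library, so a shift of many genes moves the others, and quantile normalization and equal library medians were tried as rescalings. Other alternatives were a pseudocount of 0.1, no filter, a filter at 5 TPM, a 2-fold minimum, the libraries of 1 comparison alone, the replicate number as a block, and leaving out each library. Leaving out both libraries with few genes of 1 read was chosen after seeing the data. No counting intervals were used, since replicate spread gave the errors.

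The 8 genes and all gene lists were chosen with earlier results of these data known. The lists, drawn from general knowledge, were the MYC-MAX network, MYC cofactors and turnover, MYC targets, let-7 biogenesis and turnover, let-7 genes and hosts, let-7 targets, TRIM71 targets, and markers of pluripotency, fibroblasts, primitive endoderm and neural cells. From a list, up to 3 genes with the largest log2 fold change among those that passed were named per comparison. Exceptions are *Mirlet7g*, the MYC-MAX network, the markers, and genes carried over with their values to a comparison where they were not chosen. The 2 genes with the highest Pearson's r to each of the 8 genes were named as a description.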

Additional observations from a re-analysis of the deposited data

Results flagged for a closer look

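The RA response differed between the genotypes for 5 of the 8 genes, by limma's test of the difference itself (KO change minus WT change, log2 scale). *Myc* changed more positively in KO cells from day 0 to day 3 (0.84, adjusted p = 9.09e-04) and from day 1 to day 3 (0.56, adjusted p = 0.0058). The latter call was lost in 3 of 27 alternatives. *Mycn* changed more negatively over both spans (-0.94, adjusted p = 0.00165, and -1.07, adjusted p = 2.65e-04). *Mxd4* rose less in KO cells from day 0 to day 1 (-0.78, adjusted p = 0.0343), a call lost in 16 of 27 alternatives. It rose more in KO cells from day 1 to day 3 (1.35, adjusted p = 2.15e-04). *Lin28b* changed more positively in KO cells from day 0 to day 3 (0.64, adjusted p = 0.0207, a call lost in 4 of 27 alternatives) and from day 1 to day 3 (0.80, adjusted p = 0.00281). *Trim71* fell in WT cells and rose in KO cells from day 1 to day 3 (0.79, adjusted p = 0.00116). The cause of these differences was not tested, and clone and knockout cannot be told apart.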

How the results depend on the processing

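Of the alternatives, a 2-fold minimum removed the most calls among the 8 genes, 35 over the 12 comparisons, and no value reversed its direction while called. For KO against WT at day 0 (5 genes), 3 passed with equal medians, 0 with the 5 libraries alone, 2 without the 2 libraries with few genes of 1 read, and 2 to 5 when 1 library was left out (2 without WT replicate 1 at day 0). At day 1 (5 genes), 3 passed after quantile normalization, with equal medians and with voom, and 4 to 6 with 1 library left out. At day 3 (2 genes), 1 passed with equal medians, 0 with the 6 libraries alone, 1 without the 2 libraries with few genes of 1 read, and 1 to 2 with 1 library left out. From day 0 to day 3 in KO cells (4 genes), 7 passed with equal medians. For the difference between genotypes from day 0 to day 1 (1 gene), 2 passed with a filter at 5 TPM and 0 with a pseudocount of 0.1, after quantile normalization, with equal medians, alone, with the replicate block and with voom. With 1 library left out, 0 to 3 passed there (3 without WT replicate 2 at day 0), 2 to 5 from day 0 to day 3 (2 without WT replicate 1 at day 0 or KO replicate 2 at day 0, 5 without WT replicate 2 at day 0) and 5 from day 1 to day 3. The RA comparisons gave 5, 8 and 7 to 8 in WT and 6, 4 to 5 and 5 to 6 in KO cells for day 1 against 0, 3 against 0 and 3 against 1. A 2-fold minimum left 0, 1 and 0 genes for KO against WT at day 0, 1 and 3, 3 and 2 for day 3 against 0 and 3 against 1 in WT, 2 for day 3 against 1 in KO, and 0, 0 and 2 for the differences between genotypes. With the replicate number as a block, 4, 5 and 2 genes passed for KO against WT. Deviations of 24 same-numbered pairs correlated by -0.13 to 0.12, with 1 above 0.1, so no pairing by number was visible. With so few libraries per group, these correlations cannot settle whether same-numbered samples were handled together. Over all genes, the 2598 calls for KO against WT at day 0 became 178 in a fit of those libraries alone and 1434 without the 2 libraries with few genes of 1 read. The 1645 at day 3 became 591 alone. From day 0 to day 1, the 8311 of WT cells became 5235 alone. For the differences between genotypes, 488 became 290 without the 2 libraries (day 0 to 1), 1345 became 517 alone (day 0 to 3), and 1665 became 3116 without the 2 libraries and 1095 with equal medians (day 1 to 3). The 2-fold minimum left 668, 485 and 283 calls for KO against WT at day 0, 1 and 3, 3033, 5640 and 3335 for RA in WT, 1519, 4782 and 3353 in KO cells, and 188, 529 and 493 for the differences between genotypes. The share of called genes that were higher, with quantile normalization and equal medians after it, was 56.8%, 48.6% and 45.4% for WT day 3 against 0, 57.8%, 54.5% and 43.9% for KO day 1 against 0, 57.6%, 48.7% and 38.8% for KO day 3 against 0, and 56.7%, 47.4% and 39.8% for KO day 3 against 1. It was 31.6%, 47.5% and 43.6%, 57.3%, 54% and 41.6%, and 78%, 58.1% and 48.7% for the differences between genotypes from day 0 to 1, 0 to 3 and 1 to 3. The call for the difference of *Lin28b* between genotypes from day 0 to day 3 was lost in 4 of 27 settings, among them the 2-fold minimum. The cause of these moves was not tested.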

Other observations

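Listed let-7 targets moved in both directions with RA. From day 1 to day 3, 4 of 12 rose and 7 fell in WT cells, and 6 rose and 3 fell in KO cells (5 and 5 with equal library medians). Of all genes, 19.5% rose and 24.3% fell in WT cells, and 25.5% rose and 19.4% fell in KO cells. Among TRIM71 targets, the semaphorin receptor gene *Plxnb2* dropped within 1 day of RA in WT (log2 fold change -1.09, limma) and KO cells (-1.13) and climbed again to day 3 (1.04 and 0.79), a course like that of *Myc* and *Lin28a*. *Cdkn1a* rose less in KO than in WT cells from day 0 to day 3, with a difference of -0.68 on the log2 scale (adjusted p = 0.00675), having started higher. That call was lost in a fit of the libraries of these days alone.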
